A study of Mus musculus with 14 samples.

Results

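Neutrophil granule genes were followed by maturation stage in 7 single-cell RNA libraries of mouse tumor nodules. The set held 10 of the 32285 genes in the count matrices and was taken by gene symbol from a list drawn up with earlier results of these data known. Mpo, Elane and Prtn3 stood for the early stage, Ltf, Camp and Ngp for the middle stage, and S100a8, S100a9, Mmp8 and Mmp9 for the late stage. All 10 genes had UMIs (unique molecular identifiers, each counting 1 captured RNA molecule) in each of the 7 libraries.

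Neutrophils load their granules in an order set by maturation. Promyelocytes in the bone marrow fill azurophil granules with myeloperoxidase (Mpo) and the serine proteases neutrophil elastase (Elane) and proteinase 3 (Prtn3). Myelocytes and metamyelocytes then fill specific granules with the iron-binding protein lactoferrin (Ltf), the cathelicidin antimicrobial peptide (Camp) and neutrophilic granule protein (Ngp), and more mature cells make the collagenase Mmp8 and the gelatinase Mmp9 of the last granules. S100a8 and S100a9 form calprotectin, which lies in the cytosol and not in a granule, and their RNAs persist in blood neutrophils. Mature neutrophils keep granule proteins long after the early messages have gone, so the RNA reports the stage of the cell and not its protein content.

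The nodules came from conditional knockout (cKO) mice, Eif3e fl/fl with Cγ1Cre and a Rosa26 YFP reporter behind a stop cassette, on the C57BL/6J background. The Cre is driven from the Ighg1 locus, so Eif3e is removed in activated B cells. All 7 libraries come from tumors of this genotype. The paper reports that lymphoma B and CD4 T cells, primary or transplanted, carried no YFP and had normal eIF3e protein. Loss of Eif3e should therefore not be assumed in the tumor lymphocytes. The labels give receptor libraries that divide the mice into 5 with a B cell receptor (BCR) library (mice 27, 29, 31, 33 and 34) and 2 with a T cell receptor (TCR) library (mice 30 and 32). The nodules lay in the liver (mouse 27 at 12 mo, mouse 30 at 14 mo), the spleen (mouse 31 at 13 mo, mouse 32 at 12 mo), the lung (mouse 29 at 12 mo), the thymus (mouse 33 at 16 mo), and the lung and thymus (mouse 34 at 9 mo). Each mouse gave 1 RNA library, called its nodule here, so mouse and site cannot be told apart, and no nodule-free or Cre-negative tissue was analysed here. The nodule of mouse 27 was a secondary tumor that grew in a Rag2-/- recipient after transplantation, so its library can hold host cells of another genotype, and donor and host cells, neutrophils included, cannot be told apart. Red blood cells were lysed and dead cells removed before loading.

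After filtering, 75503 of 77442 cells remained, 6864 to 14057 per library, with median depths of 1364 (mouse 30) to 5319 (mouse 33) UMIs per cell. The libraries held 74042 distinct cell barcodes, 3307 of them in more than 1 library, and any pair of libraries shared 96 to 286. Cells were clustered without the 10 genes and named from lists of marker genes, to which the 10 do not belong. The neutrophil-like class held 3897 cells, which came to 722 and 1122 cells for TCR mice 30 and 32 (6.89% and 8.39% of their libraries). BCR mouse 29 had 1945 such cells (13.8%), whereas BCR mice 27, 31, 33 and 34 had 25, 37, 9 and 37 (0.266%, 0.326%, 0.0902% and 0.539%). Mice 29, 30 and 32 therefore carried nearly all of the class, and values from mouse 33 rest on 9 cells.

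Promoter sequences of the early genes and of Ngp, S100a8 and S100a9 are shown first, a choice that does not rank genes by their difference between nodules. The sequences are RefSeq windows of the 250 bases before the annotated start on build GRCm38.p6, and 9 of the 10 genes matched an entry (not Mmp9). Capitals mark matches on either strand to 1 of 2 motifs. AGGAAGT stands for the myeloid factor PU.1 and holds the GGAA core that other ETS factors share, and TTNNGNAA stands for the C/EBP family. No match to one overlapped a match to the other in the windows printed. The early genes Mpo (chr11:87793534-87793783, plus strand), Elane (chr10:79886062-79886311, plus strand) and Prtn3 (chr10:79879417-79879666, plus strand) come first, then Ngp of the middle genes (chr9:110419558-110419807, plus strand), then S100a8 (chr3:90668821-90669070, plus strand) and S100a9 (chr3:90695722-90695971, minus strand) of the late genes.
Mpo: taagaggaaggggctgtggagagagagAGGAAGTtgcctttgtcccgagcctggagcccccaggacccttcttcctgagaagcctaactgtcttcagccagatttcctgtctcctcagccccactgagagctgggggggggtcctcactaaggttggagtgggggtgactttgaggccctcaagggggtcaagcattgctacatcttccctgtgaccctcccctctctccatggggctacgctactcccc
Elane: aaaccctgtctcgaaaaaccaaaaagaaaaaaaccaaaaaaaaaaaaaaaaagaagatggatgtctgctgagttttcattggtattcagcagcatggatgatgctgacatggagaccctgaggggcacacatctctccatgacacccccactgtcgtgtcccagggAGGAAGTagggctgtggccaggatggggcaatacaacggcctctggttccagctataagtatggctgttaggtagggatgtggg
Prtn3: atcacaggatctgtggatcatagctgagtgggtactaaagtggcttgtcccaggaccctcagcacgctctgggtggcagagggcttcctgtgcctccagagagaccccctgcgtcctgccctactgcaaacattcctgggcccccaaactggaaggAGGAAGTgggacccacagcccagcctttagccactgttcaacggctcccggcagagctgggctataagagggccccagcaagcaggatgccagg
Ngp: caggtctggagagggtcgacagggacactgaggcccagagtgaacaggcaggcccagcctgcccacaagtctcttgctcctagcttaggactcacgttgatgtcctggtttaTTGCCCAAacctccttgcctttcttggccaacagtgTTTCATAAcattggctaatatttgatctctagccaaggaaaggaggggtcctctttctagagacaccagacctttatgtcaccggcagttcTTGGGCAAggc
S100a8: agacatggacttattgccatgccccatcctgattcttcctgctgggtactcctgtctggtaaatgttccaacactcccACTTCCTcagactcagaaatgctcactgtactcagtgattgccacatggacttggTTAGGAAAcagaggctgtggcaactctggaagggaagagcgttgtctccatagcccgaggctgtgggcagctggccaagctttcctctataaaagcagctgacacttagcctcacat
S100a9: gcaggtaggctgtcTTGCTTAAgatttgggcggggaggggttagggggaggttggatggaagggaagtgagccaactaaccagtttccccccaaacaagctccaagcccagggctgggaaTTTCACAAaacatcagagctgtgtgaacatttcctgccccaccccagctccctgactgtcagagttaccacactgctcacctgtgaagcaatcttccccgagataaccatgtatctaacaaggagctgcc

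The 3 early genes each held 1 AGGAAGT, 223 (Mpo), 84 (Elane) and 94 (Prtn3) bases before the start, and none of them held TTNNGNAA. S100a8 held AGGAAGT at 172 and TTNNGNAA at 117 bases before the start, S100a9 held TTNNGNAA at 236 and 130, and Ngp held it at 138, 102 and 11. Over the 9 windows, 5 held each motif, whereas 7.70% of 32536 RefSeq promoters of this length held AGGAAGT and 36.8% held TTNNGNAA. The window of Camp, which is not printed, held neither. These matches describe letters in a window and not sites of binding. Elane and Prtn3 are neighbours on chromosome 10 (79886312 to 79888216 and 79879667 to 79883174), S100a8 and S100a9 lie on chromosome 3 (90669071 to 90670034 and 90692630 to 90695721), and Ltf, Camp, Ngp and Mmp8 all lie on chromosome 9.

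Summed over all cells of a nodule, the 10 genes spanned a wide range, from 91.2 CPM (UMIs of a gene per 1000000 UMIs) in mouse 31 to 13413 in mouse 30. Mice 27, 33 and 34 held 136, 127 and 127 CPM, whereas mice 29 and 32 held 8691 and 9324. In these sums, fewer neutrophils and less RNA per neutrophil cannot be told apart, so the early, middle and late genes were compared further within the neutrophil-like class. CPM relates a gene's UMIs to all UMIs of the same cells and was compared for 1 gene between samples, not between genes.

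By gene, the whole-nodule levels already differed in order between stages. Elane was at 109 and 326 CPM in TCR mice 30 and 32 and at 0.0705, 4.06, 0.0134, 3.54 and 0.0229 CPM in BCR mice 27, 29, 31, 33 and 34. Both TCR mice lay above every BCR mouse. Camp was at 1701 and 1354 against 11, 266, 4.77, 13.5 and 0.183 CPM in the same order, with mouse 29 closest to the TCR mice. S100a9, at 5533 and 3243 against 57.9, 4458, 49.4, 53.2 and 78.2 CPM, placed mouse 29 between the TCR mice. For Mmp8, at 14.1 and 16.1 against 0.517, 51.2, 0.588, 0.945 and 0.777 CPM, mouse 29 was the highest of all.

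**Figure D1:**
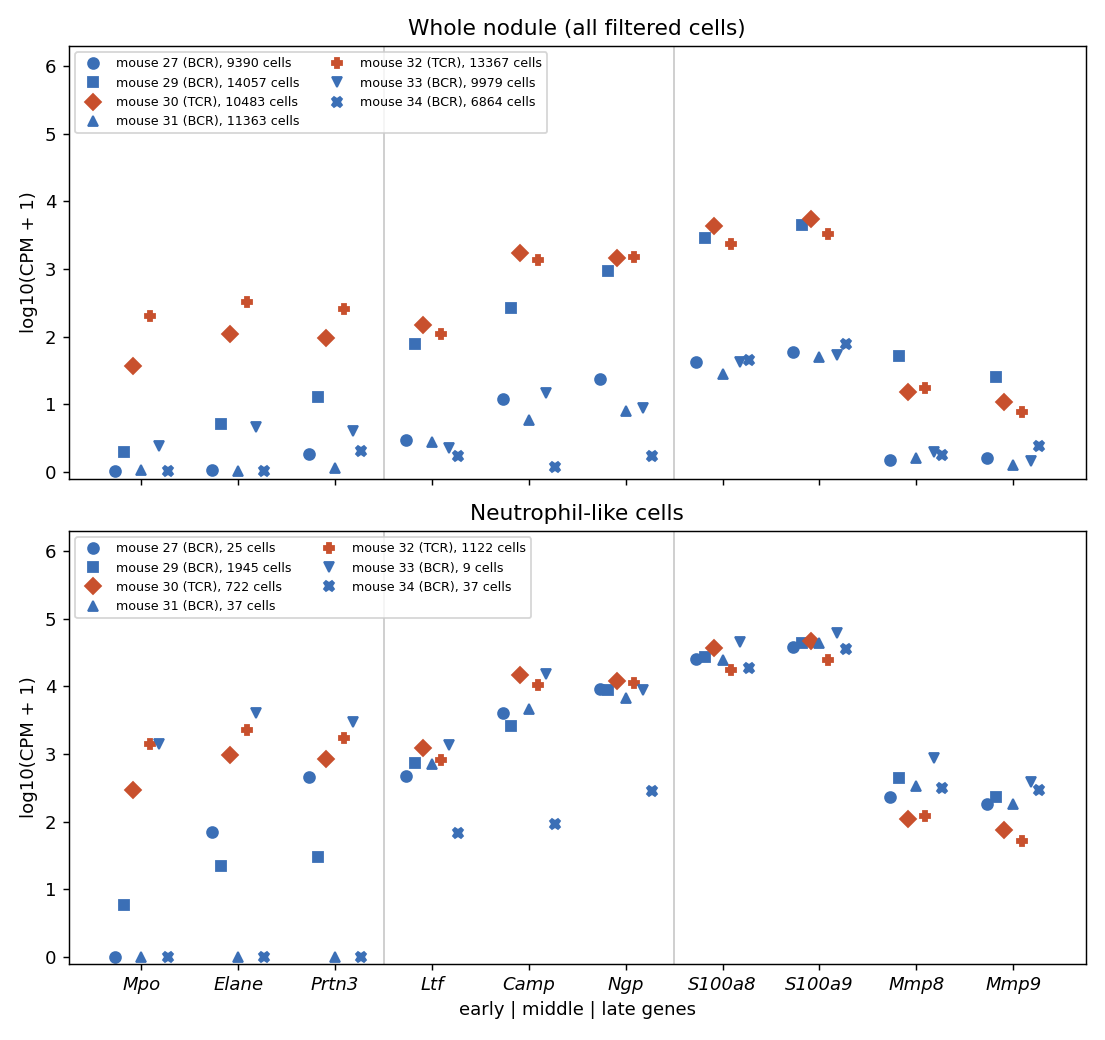
Level of each granule gene by mouse as log10(CPM + 1), in all cells of the nodule (top) and in the sum of neutrophil-like cells (bottom); each point is 1 library, its shape gives the mouse and its color the receptor library. In neutrophil-like cells the early genes spread from 0 in mice 31 and 34 to over 1000 CPM in mice 32 and 33, while S100a9 lies between 24775 and 60815 CPM in all 7 libraries.

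Among the early genes, Mpo reached 291 and 1396 CPM in the neutrophil-like cells of TCR mice 30 and 32. It was at 4.82 CPM in mouse 29, at 1391 CPM in mouse 33 and had no UMI in mice 27, 31 and 34. At these depths 3 UMIs would have given 68.2, 38.9 and 33.8 CPM in those 3 mice, so a level up to these values was not detectable. The value of mouse 33 came from a single cell that held all 525 early-gene UMIs of the 9.

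Elane stood at 953 and 2245 CPM in TCR mice 30 and 32. Its level in BCR mice 27, 29, 31, 33 and 34 was 68.2, 21, 0, 4077 and 0 CPM, where the value of mouse 27 is 3 UMIs from 1 cell and that of mouse 29 is 96 UMIs from 2 of 1945 cells. Elane UMIs lay in 54 of 722 neutrophil-like cells of mouse 30 and in 553 of 1122 of mouse 32. The message was thus carried by few cells in the BCR nodules and by a much larger share of the class in mouse 32.

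Prtn3 followed with 835 and 1752 CPM in mice 30 and 32 and 455, 28.9, 0, 2926 and 0 CPM in mice 27, 29, 31, 33 and 34. The 95% Poisson interval in mouse 27, with 20 UMIs, ran from 278 to 702 CPM. Such intervals cover counting error only. Cells with any early-gene UMI made up 12.3 and 68% of the class in TCR mice 30 and 32. In the BCR mice 27, 29, 31, 33 and 34 the share was 8, 1.7, 0, 11.1 and 0%.

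Depth differed between the libraries, with a median of 9644.5 UMIs per neutrophil-like cell in mouse 32, 4454 in mouse 33 and 1400 to 2340 in the other 5. After each cell was thinned to 1000 UMIs, the early-positive share was 9.45 and 46.6% in mice 30 and 32, against 6.25, 0.735, 0, 11.1 and 0% in the BCR mice in the same order. The comparison class was T-like cells, which should lack these genes. In mice 29, 30 and 32 their early-positive shares were 0.117%, 1.34% and 10.5% at median depths of 1188, 1322 and 2871 UMIs, and the shares of mice 30 and 32 fell to 0.791% and 3.82% after thinning. The early-positive shares of the neutrophil-like cells of mice 30 and 32 stood above this background at both depths.

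The middle genes were present in the neutrophil-like cells of all 7 nodules. Ngp was at 12179.9 and 11411 CPM in mice 30 and 32 and at 9255, 8979, 6710.3, 8985 and 281 CPM in mice 27, 29, 31, 33 and 34. Mouse 34 was the low one, with 25 Ngp UMIs and an interval of 182 to 415 CPM. Camp was at 14709 and 10388 CPM in mice 30 and 32 and at 4048, 2625, 4595, 15428 and 90 CPM in the BCR mice in the same order. Only the 9-cell sum of mouse 33 reached above the TCR mice.

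For lactoferrin the receptor groups overlapped only through the 9-cell sum of mouse 33. Ltf stood at 1205 and 825 CPM in mice 30 and 32 against 478, 745, 714, 1359 and 67.5 CPM in mice 27, 29, 31, 33 and 34. Cells with a middle-gene UMI made up 32, 53, 41.7, 27, 89.9, 66.7 and 24.3% of the class in mice 27, 29, 30, 31, 32, 33 and 34, and 31.2, 47.1, 42.4, 18.8, 75.5, 44.4 and 17.1% after thinning. Mouse 32 was the highest at both depths.

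The middle genes did not keep a fixed ratio to each other. Camp UMIs per Ngp UMI were 0.437, 0.292, 1.21, 0.685, 0.91, 1.72 and 0.32 in mice 27, 29, 30, 31, 32, 33 and 34. Mouse 29 was lowest, and mice 30 and 33 had more Camp than Ngp UMIs. S100a9 per S100a8 UMI, in contrast, ranged only from 1.28 in mouse 30 to 1.88 in mouse 34.

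The calprotectin genes were high in every nodule's neutrophil-like cells. S100a9 stood at 47386 and 24775 CPM in mice 30 and 32 and 37656, 43325, 43623, 60815 and 35162 CPM in mice 27, 29, 31, 33 and 34, and S100a8 at 36898 and 17711 and 25036, 26845, 24271, 45419.7 and 18729 CPM in the same order. The TCR mouse 32 was the lowest of all 7 for both genes. At least 1 late-gene UMI was found in 92, 99.7, 97, 94.6, 96.5, 100 and 97.3% of the neutrophil-like cells of mice 27, 29, 30, 31, 32, 33 and 34.

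The levels of the 2 metalloproteinases lay the other way from the early genes. Mmp8 was at 109 and 119 CPM in mice 30 and 32 and at 227, 443, 337, 879 and 315 CPM in mice 27, 29, 31, 33 and 34, so both TCR values lay below all 5 BCR values. Mmp9 was at 75.4 and 50.3 against 182, 227, 182, 384 and 293 CPM, again without overlap. The share of all genes with both TCR mice below all BCR mice was not counted, so this separation has no background beside it. For both TCR mice above all BCR mice, the share was 18.1% in the fit without mouse 33. Mouse 27 rests on 10 Mmp8 and 8 Mmp9 UMIs, with intervals of 109 to 418 and 78.5 to 358 CPM, of which the first reaches the level of mouse 30 and the second ends just above it. Whether these differences exceed the spread between mice is tested further on.

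The stages could also be read cell by cell. Cells with late-gene UMIs and no early or middle UMI made up 60, 46.3, 54.2, 70.3, 1.52, 33.3 and 73% of the class in mice 27, 29, 30, 31, 32, 33 and 34. Mouse 32 stood apart with 17 such cells of 1122. In mouse 29 the other large pattern was middle and late without early, in 1007 of 1945 cells, and in mouse 30 the same pattern held 222 of 722. Early UMIs without any middle UMI were found in 94 cells of mouse 32, 14 of mouse 30, 9 of mouse 29 and 1 of mouse 27. UMIs of Mmp8 or Mmp9 beside an early gene, which belong to opposite ends of maturation, were found in 93, 6, 22 and 1 cells of the same mice.

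Relative to late-gene UMIs, the early genes gave 8.29, 0.773, 24.6, 0, 126, 78.1 and 0 UMIs per 1000 in mice 27, 29, 30, 31, 32, 33 and 34, and the middle genes gave 218, 174, 333, 176, 530.4, 239.7 and 8.05. Mouse 32 led on both scales. Mouse 34 was lowest for the middle genes and, like mouse 31, had no early UMI in 37 cells.

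Clustering of the neutrophil-like cells, again without the 10 genes, gave 5 sub-clusters, and the granule genes fell into stages along them. Because other genes of the same cells made the sub-clusters, their values are a description and no test. All 5 carried 10 to 12 of the 12 neutrophil markers, and s1 also carried 6 of the 7 precursor markers. The sub-cluster s1 (930 cells) was led by Ctsg, Ms4a3, Rrm2, Top2a and Fcnb, that is, by azurophil protease, precursor and cell division genes. The sub-cluster s4 (310 cells) was led by the stefin genes Stfa1, Stfa2 and Stfa3 with Chil3 and Lyz2. The remaining 3 were s2 (769 cells; Cxcl3, Prok2, Olfm4), s3 (678 cells; Slfn5, Ifi27l2a, Csf3r, Rsad2) and s0 (1210 cells; Cxcl3, Wfdc17, Clec4d).

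The early genes were nearly limited to s1. Over s1, s4, s2, s3 and s0 in this order, Mpo was at 1609, 4.38, 0.469, 7.49 and 0.807 CPM and Elane at 2677, 10.2, 1.41, 0.832 and 0 CPM. Prtn3 was at 2098, 47.1, 8.92, 7.49 and 5.65 CPM. The other azurophil protease Ctsg (cathepsin G) ran alongside at 1073, 4.75, 0.469, 0.832 and 0.404 CPM, and the proliferation gene Mki67 was at 541, 43.1, 12.7, 17.5 and 2.83 CPM.

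With all libraries summed, the middle genes were highest in s4, where 286 of the 310 cells came from mouse 32. Ltf was at 344, 3638, 1668, 215 and 85.6 CPM over s1, s4, s2, s3 and s0, and Camp at 9458, 21470, 6207, 1278 and 157 CPM. Ngp was at 8398, 30468, 17176, 2029 and 2001 CPM. In mouse 30, however, s4 (17 cells) lay below both s1 and s2, with Ltf at 1536 against 1618 and 5159.6 CPM, Camp at 18185 against 25250.2 and 28353 and Ngp at 14574 against 19259 and 29822. The order of s1, s4 and s2 for the middle genes thus depended on the library. Lcn2, another specific granule gene, was in the summed libraries at 3038, 12687, 7643, 1696 and 2658 CPM. Cebpe, the C/EBP factor needed for specific granules, was at 156, 133, 32.4, 13.3 and 1.21 CPM, so it was high in both s1 and s4.

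With all libraries summed, the late genes were lowest in s1. S100a9 was at 20465, 61997, 59726, 27769.8 and 31639.9 CPM over s1, s4, s2, s3 and s0, and S100a8 at 13943, 47598, 38803, 22081 and 19618 CPM. Mmp8 was at 11.3, 602, 581, 275 and 326 CPM and Mmp9 at 1.99, 267, 270.4, 171 and 200.3 CPM, so both metalloproteinases were lowest in s1. For the calprotectin genes the low s1 value came mostly from mouse 32, with 806 of the 930 cells. S100a9 in s1 was low in mouse 27 too (5 cells), at 6074 against 23126 CPM in s3. In mouse 33 (1 cell) it was at 16106 against 80657 CPM in s3. By contrast, S100a9 in s1 was at 60604 CPM in mouse 30, above the 25379 of its s3. In mouse 29 (10 cells) it was at 52907 CPM, above the 31895 and 36961 of its s0 and s3. S100a8 in s1 of mouse 30 was likewise at 43363 against 22219 CPM in s3. Genes of mature neutrophils ran on where the middle genes fell off, with Il1b at 151, 1038, 1174, 3973 and 4686 CPM and the chemokine gene Cxcl2 at 507, 3840.2, 12882, 12347 and 27204 CPM.

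**Figure D2:**
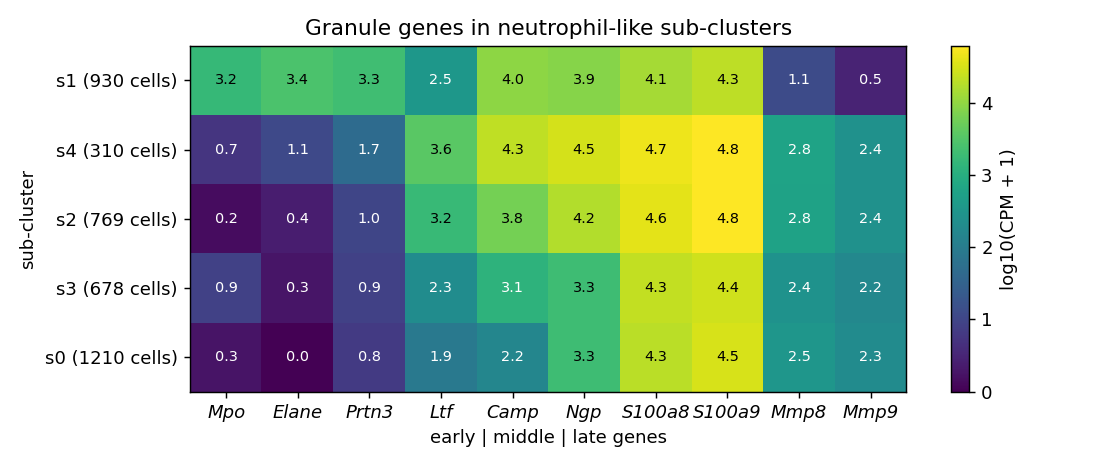
Granule gene levels in the 5 neutrophil-like sub-clusters, all libraries summed; color and printed number give log10(CPM + 1), with early, middle and late genes from left to right. Early genes are high in s1 alone, middle genes are highest in s4, and Mmp8 and Mmp9 are low in s1 and lie at 275 to 602 and 171 to 270.4 CPM in the other 4.

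The sub-clusters were unevenly divided among the nodules. In mouse 32, s1 held 71.8% of the neutrophil-like cells and s4 held 25.5%, and in mouse 30, s3 held 77.4% and s1 held 108 of 722 cells. In mouse 29, s0 held 61.5% and s2 36.5%, while s3 was the main sub-cluster of mouse 31 (89.2%), mouse 34 (73.0%) and mouse 27 (13 of 25 cells). Of the 1210 cells of s0, 1196 came from mouse 29, and 806 of the 930 cells of s1 came from mouse 32. Such sub-clusters may reflect 1 library and not a stage. Their depths differed as well, with medians of 10295 UMIs in s1, 8585.5 in s4, 2403 in s2, 1444 in s3 and 1877 in s0.

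Within s1, the 2 TCR mice could be set side by side. Mouse 30 (108 cells) had 619 CPM of Mpo against 1701 in mouse 32 (806 cells), and 2054 against 2734 of Elane. It had more of the middle genes, with 25250.2 against 8094 CPM of Camp, 19259 against 7305 of Ngp and 1618 against 219 of Ltf. S100a9 was likewise higher in mouse 30, at 60604 against 16924 CPM. The s1 cells of mouse 30 thus held more middle and calprotectin RNA per early RNA than those of mouse 32, a comparison of single libraries without replicates. In s4 of mouse 32 the early gene Elane was at 10.7 CPM, Ltf at 3710.2 and Mmp8 at 622.

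The level of Mmp8 could be followed in s3, the only sub-cluster with at least 7 cells of each of the 7 mice. It was at 184, 526, 186, 1744 and 428 CPM in BCR mice 27, 29, 31, 33 and 34 and at 201 and 538 CPM in TCR mice 30 and 32. Here the groups overlapped. The separation of TCR and BCR mice in Mmp8 over the whole class was thus not seen within s3.

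The first tested comparison asked whether the genes differed between TCR and BCR mice over the whole nodule. The fit was edgeR's quasi-likelihood test on the summed counts of 7 mice, with p-values adjusted by Benjamini-Hochberg over 19159 genes. None of the 10 genes passed an adjusted p of 0.05, nor did any gene (0% called), while 2118 genes had an unadjusted p under 0.05 and DESeq2 called 1053, Mpo and Elane among them. Mpo had the largest difference of the set, log2 7.65 higher in TCR mice (SE 1.52, adjusted p = 0.236), followed by Elane at 6.93 (SE 1.87, adjusted p = 0.297) and Prtn3 at 5.57 (SE 1.28, adjusted p = 0.273). Camp differed by 4.56 (adjusted p = 0.418), Ngp by 2.83 (0.621), Ltf by 2.81 (0.554), S100a8 by 2.33 (0.641), S100a9 by 2.10 (0.683), Mmp9 by 0.47 (0.940) and Mmp8 by 0.38 (0.957).

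The order of these differences followed the stage, from early to middle to calprotectin to metalloproteinase genes. All 6 early and middle genes had both TCR mice above all 5 BCR mice, against 8.43% of all genes tested. The median log2 difference of the 10 was 2.82, beside −0.09 over all genes. Without mouse 29, the BCR mouse rich in neutrophil-like cells, 233 of 18607 genes passed the test. Among them were 6 of the 10 (Prtn3, Ltf, Ngp, S100a8, S100a9 and Mmp8). Leaving out mouse 27, 31, 33 or 34 gave no call.

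The second comparison asked the same of neutrophil-like cells alone, summed per mouse. Mouse 33, with 9 cells, was left out, which leaves 4 BCR and 2 TCR mice, and 8778 genes were tested. Mpo and Elane rose in the TCR mice, Mpo by log2 7.24 (SE 0.96, adjusted p = 0.000624) and Elane by 6.09 (SE 0.94, adjusted p = 0.00236), where 1.54% of the genes tested were called, 1.18% as higher and 0.353% as lower. Mpo had no UMI in mice 27, 31 and 34, and Elane had none in mice 31 and 34. Mpo was thus kept for testing mainly by its counts in the TCR mice, where it is high. Its p-value describes that contrast and is no independent support. Prtn3 differed by 3.89 (SE 1.04, adjusted p = 0.0558) and Camp by 2.19 (SE 0.95, adjusted p = 0.261), neither past the threshold, and on the TMM-scaled values of the fit, Mpo, Elane, Prtn3 and Camp had both TCR mice above all 4 BCR mice, as had 18.1% of all genes. On the unscaled CPM given above, Ltf and Ngp did so too. The remaining 6 did not pass either, with log2 differences of 0.86 for Ltf, 0.78 for Ngp, 0.15 for S100a8, −0.19 for S100a9, −1.72 for Mmp8 (adjusted p = 0.291) and −1.91 for Mmp9 (adjusted p = 0.217). The median of all genes was 0.36 on this scale, and the median of the 10 was 0.82.

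Different sub-clusters held the class in these mice, s1 and s4 in mouse 32, s3 and s1 in mouse 30, s0 and s2 in mouse 29, and s3 in mice 27, 31 and 34. When s1 was left out, Mpo and Elane fell below the filter on low counts, 0 of the 8 members still tested were called and 1 of 6024 genes passed. In that fit S100a9 stood at 0.45, Mmp8 at 0.40 and Mmp9 at 0.050, on the other side of 0 from the fit with all cells. With all cells, Mpo and Elane stayed among 2 or 3 members called when mouse 27, 29, 31 or 34 was left out. Mice 27, 31 and 34 had no Mpo UMI, so leaving 1 of them out is a weak check of the Mpo call. It adds no independent support. Without mouse 30 or 32 the TCR arm is 1 mouse, assumed to vary like the BCR mice. Meanwhile the number of genes called came to 324, 31, 25, 279, 15 and 72 without mice 27, 29, 30, 31, 32 and 34, so every leave-out moved it.

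Other granule genes were counted in the same fit. Of 8 genes listed with the azurophil stage, 3 rose and none fell. They were the azurophil proteases Ctsg (log2 4.34, adjusted p = 0.0462) and Prss57 (4.16, adjusted p = 0.0356), and Ms4a3 (5.33, adjusted p = 0.00368). Ms4a3 is a precursor gene and not a granule protein gene. Of 12 specific granule genes, Fcnb (ficolin B) alone rose, by 5.14 (adjusted p = 0.00368). None of 9 gelatinase and secretory vesicle genes tested and none of 8 transcription factor genes passed, with Gfi1 at 2.98 (adjusted p = 0.135) and Cebpe at 1.80 (adjusted p = 0.288). Of 7 genes of mature neutrophils, Ccrl2 fell by 3.79 on the log2 scale (adjusted p = 0.0385), and Il1b stood at −3.31 (adjusted p = 0.0944). Of 4 proliferation genes tested, Top2a and Ube2c rose by 3.88 (adjusted p = 0.0186) and 3.50 (adjusted p = 0.0275). Ctsg, Ms4a3, Fcnb and Top2a were among the leading genes of s1. That sub-cluster held 108 and 806 cells of TCR mice 30 and 32. It held 5, 10, 0 and 0 cells of BCR mice 27, 29, 31 and 34. As for Mpo, their p-values describe that contrast and are no independent support.

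Another comparison was made within mice, between neutrophil-like cells with at least 2 middle-gene UMIs and those with none, in the 3 mice with enough of both. Mouse 29 gave 754 and 914 cells, mouse 30 gave 212 and 421 and mouse 32 gave 921 and 113, with mouse as a block in the edgeR fit. The middle genes made the split and were left out. None of the other 7 members passed among 9735 genes, of which 0% were called, 740 had an unadjusted p under 0.05 and DESeq2 called 115, S100a8 and S100a9 among them. S100a9 was at 82887, 56265 and 29466 CPM in the cells with middle UMIs of mice 29, 30 and 32 and at 34064, 14128 and 434 CPM in those without, a log2 difference of 2.76 (SE 1.62, adjusted p = 0.772) with the same direction in 3 of 3 mice.

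The early and late members leaned to the same side in this split. Elane differed by 2.68 (adjusted p = 0.716), S100a8 by 2.58 (0.752), Mmp8 by 2.05 (0.709) and Prtn3 by 1.57 (0.827), each higher in 3 of 3 mice. Mpo at 1.49 (0.798) and Mmp9 at 0.95 (0.895) were higher in 2 of 3. Without mouse 32, 373 of 7489 genes and 3 members (Mpo, Elane and Prtn3) were called. Without mouse 29 it was 14 of 9281 genes and without mouse 30 it was 14 of 9734, with no member in either. The low S100a9 in the mouse 32 cells without middle UMIs sets them apart from the corresponding cells of the other two mice.

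A message made by 1 cell type can be caught in droplets holding another, so the granule genes were followed into the other classes. The route by which their UMIs came to lie there was not tested. The neutrophil-like class held 67.2, 87.1, 95.5, 91, 94.5, 99.4 and 91.3% of all S100a9 UMIs of mice 27, 29, 30, 31, 32, 33 and 34, a mean of 89.4%. For the early genes the share was 56.1, 29.4, 96.6, 0, 85.2, 91.1 and 0% in the same order, so that in mouse 29 most early UMIs lay outside the class. Over the classes, the median S100a9 level across mice was 40490 CPM in neutrophil-like cells (6 mice), 95.7 in macrophage-like cells, 1.64 in T-like cells and 0.918 in B-like cells (7 mice each), with ranges of 24775 to 47386, 0 to 632, 0.413 to 150 and 0 to 154 CPM. The neutrophil-like range did not overlap the others, whereas the T-like and B-like ranges nearly coincided.

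In T-like cells the granule messages depended on the nodule. S100a9 was at 149.8, 126 and 111 CPM in mice 29, 30 and 32 and at 1.64, 1.16, 0.413 and 0.58 CPM in mice 27, 31, 33 and 34, the latter from 2, 2, 7 and 2 UMIs. The 3 nodules with at least 722 neutrophil-like cells were the 3 with the high values. The share of T-like cells with an S100a9 UMI was 0.345, 17.8, 18.1, 0.227, 31, 0.199 and 0.223% in mice 27, 29, 30, 31, 32, 33 and 34, and 0, 13.8, 11.4, 0, 12.7, 0.0603 and 0% after thinning. T-like cells should lack the gene, so these shares are the background for the 78.4% to 100% of neutrophil-like cells with an S100a9 UMI.

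The UMIs were scattered thinly. Of T-like cells with an S100a9 UMI, 796 of 913 in mouse 29, 1492 of 1687 in mouse 30 and 1927 of 2454 in mouse 32 held exactly 1. As a percent of the neutrophil-like level, the T-like level of the 10 genes lay between 0.448 (S100a9) and 0.911 (Ltf) in mouse 32, between 0.235 (S100a8) and 1.04 (Mpo) in mouse 30 and between 0.346 (S100a9) and 2.98 (Mpo, 1 UMI) in mouse 29. All 10 genes thus appeared in T-like cells at roughly 1% or less of the neutrophil-like level, apart from a few low counts in mouse 29.

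The make-up of the granule UMIs in T-like cells differed between nodules as it did in neutrophil-like cells. In mouse 32, early, middle and late genes gave 8.68%, 38% and 53.3% of the 10 genes' UMIs in T-like cells and 7.63%, 32% and 60.4% in neutrophil-like cells. In mouse 30 the T-like shares were 2.65%, 31.6% and 65.8% against 1.81%, 24.5% and 73.7%. In mouse 29 they were 0.28%, 17.3% and 82.4% against 0.0658%, 14.8% and 85.1%. The 3 nodules kept their order for early, middle and late genes in both classes, and in each the T-like cells held a larger share of middle genes than the neutrophil-like cells.

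Set to S100a9, the ratio of each gene in T-like cells to its ratio in neutrophil-like cells would be 1 if both classes held the genes in the same proportions. In mouse 32 it lay between 1.06 (S100a8) and 2.04 (Ltf, 95% interval 1.77 to 2.33). In mouse 30 it was 0.882 for S100a8, 1.06 for Camp, 1.64 for Ngp, 2.56 for Ltf (2.13 to 3.05) and 3.90 for Mpo (2.86 to 5.20). Mouse 29 gave 1.22 for Ngp, 1.95 for Ltf (1.36 to 2.71) and 3.10 for Mmp9 (1.81 to 4.97). Ltf was above 1 in all 3 mice. Several of these intervals lie well away from 1, so the counts in T-like cells were not in the ratio of the neutrophil-like class.

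**Figure D3:**
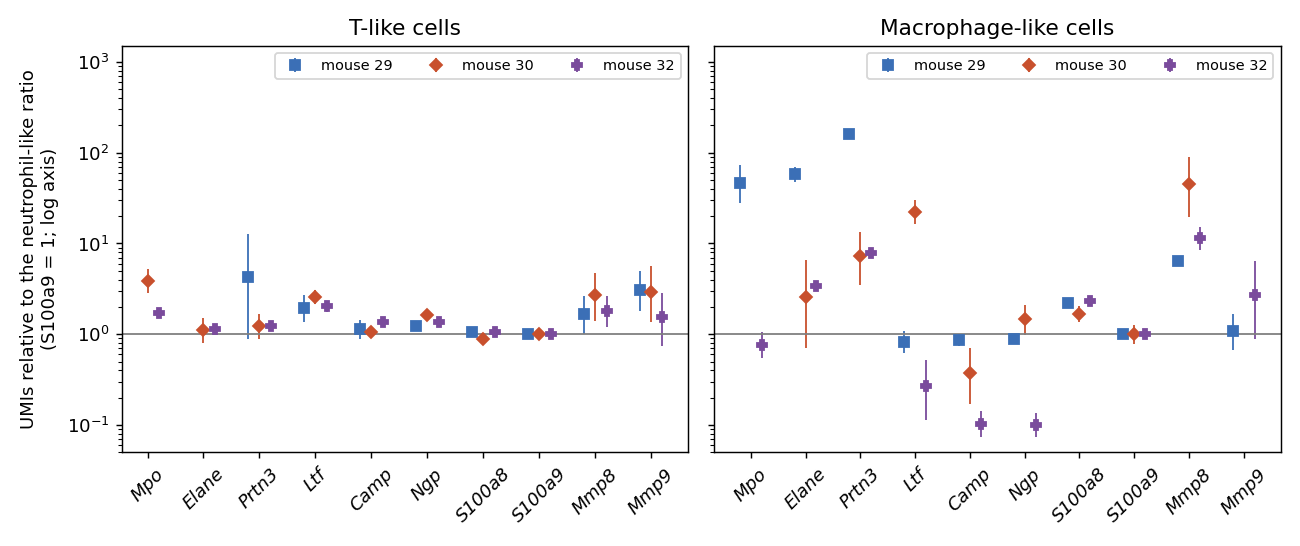
UMIs of each granule gene in T-like (left) and macrophage-like (right) cells of mice 29, 30 and 32, relative to the neutrophil-like cells of the same library with S100a9 set to 1 (log axis); bars are 95% Poisson intervals of the count, and genes with under 3 UMIs are omitted. T-like values lie between 0.882 and 4.31, whereas Prtn3 reaches 161 in the macrophage-like cells of mouse 29.

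Between TCR and BCR mice, T-like cells showed larger differences for the early genes and Camp than for the other members. None of the 8 members that passed the filter on low counts (Mmp8 and Mmp9 did not) was called by edgeR over 13403 genes, of which 0.0224% were called (0.0149% higher, 0.00746% lower), 1174 had an unadjusted p under 0.05 and DESeq2 called 235, with 2 members. The log2 difference was 6.32 for Elane (adjusted p = 0.180), 4.68 for Mpo (0.170), 4.18 for Camp (0.429), 3.52 for Prtn3 (0.437), 2.69 for Ngp (0.633), 2.40 for Ltf (0.599), 1.86 for S100a8 (0.722) and 1.77 for S100a9 (0.759). The 6 early and middle genes had both TCR mice above all 5 BCR mice, beside 8.09% of all genes tested. Elane had no UMI in the T-like cells of mice 27, 31, 33 and 34, so its difference rests almost wholly on counts in the TCR mice. Without mouse 29, 4 members were called (Camp, Ngp, S100a8 and S100a9) among 26 of 13670 genes. Without mouse 27, 31, 33 or 34 it was 0 genes. The T-like and whole-nodule fits share their mice.

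Lymphocytes with a receptor sequence gave a view that used no cluster. S100a9 UMIs were found in 0.68, 30.9, 19.1, 0.224, 31.7, 0.0903 and 0.424% of them in mice 27, 29, 30, 31, 32, 33 and 34. Mouse 29, with 330 such cells at a median of 10953.5 UMIs, fell from 30.9% to 4.28% after thinning to 1000 UMIs, and mouse 32, at a median of 3573.5 UMIs, from 31.7% to 10.9%. As for T-like cells, mice 29, 30 and 32 stood above the other 4.

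Lactoferrin was the exception among these lymphocytes. In mouse 31, 41 Ltf UMIs lay in 30 of 4014 receptor-called cells, beside 1 Camp, 4 Ngp and 36 S100a9 UMIs. Relative to S100a9 this was 69.6 times the neutrophil-like ratio (95% interval 49.9 to 94.4). In mouse 27 the same measure was 17.1 (7.36 to 33.6) from 8 UMIs, and in mice 29, 30 and 32 it was 3.37, 3.25 and 2.15. Mouse 34 had 7 Ltf and 6 S100a9 UMIs in these lymphocytes, against 6 and 3124 in its neutrophil-like cells. Mouse 33 had 1 Ltf UMI. Of the 55 neutrophil-like Ltf UMIs of mouse 31, 46 came from 1 cell, a limit that the interval does not cover. The level itself was low, 0.842 CPM in mouse 31, with a UMI in 0.747% of cells and in 0.0748% after thinning. The B-like class of mouse 31 gave the same picture, with 54 Ltf UMIs in 41 of 7289 cells and 42 S100a9 UMIs, 28 of them in 1 cell.

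Macrophage-like cells carried Prtn3 in all 7 nodules. It was at 8.11, 67.9, 12.4, 2.67, 318, 2.82 and 43.2 CPM in mice 27, 29, 30, 31, 32, 33 and 34, from 11, 392, 10, 6, 501, 14 and 30 UMIs. Its UMIs were found in 2.8, 10.6, 4.5, 1.4, 47.5, 1.07 and 9.52% of the macrophage-like cells and in 1.87, 2.87, 3.3, 0.298, 19, 0 and 2.17% after thinning, at median depths of 4512, 4652, 3459.5, 2342, 9744, 3389 and 5289 UMIs. Mice 29 and 32 stood out in level, and mouse 32 in share. T-like cells of mouse 32, which should lack the gene, had 9.67 CPM. Prtn3 outside neutrophil-like cells was not confined to the macrophage-like class. Erythroid-like cells of mouse 29 were at 90.1 CPM (18 UMIs in 5 of 86 cells). Endothelial-like cells of mouse 33 were at 26.8 CPM (11 UMIs in 5 of 93 cells). Both values lay above the macrophage-like level of the same mouse.

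Relative to S100a9, Prtn3 in the macrophage-like cells of mouse 29 was 161 times its neutrophil-like ratio (95% interval 145 to 177), Elane 58.1 times and Mpo 46.7 times. Such intervals cover the macrophage-like count alone. The neutrophil-like side of mouse 29 rests on few cells, since 4 of 1945 held 221 of its 250 early UMIs. Its Elane UMIs came from 2 cells and its 22 Mpo UMIs from 4. In mouse 32, Prtn3 was at 7.86 times (7.19 to 8.58) and Elane at 3.38, whereas Mpo was at 0.768 (0.546 to 1.05) and Camp and Ngp were at 0.103 and 0.101. Mpo had no UMI in the macrophage-like cells of the other 5 mice. The early genes thus did not move as one in these cells, with Prtn3 and Elane above the ratio in both nodules and Mpo in mouse 29 alone. For mouse 29 this reading is limited by its few early-positive neutrophil-like cells. Mmp8 was above the ratio too, at 6.40 in mouse 29 and 11.5 in mouse 32.

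In mice 29 and 32 these early UMIs were concentrated in few cells. In mouse 29, 66 of 1010 macrophage-like cells had at least 2 early UMIs and held 466 in all, and in mouse 32 it was 51 of 141 cells with 791. Those cells had high Ly6c2, the surface marker of classical monocytes, and little C1qa, a complement gene of tissue macrophages. Ly6c2 was at 917 CPM in the 66 cells of mouse 29 against 43.7 in the other 944, and C1qa at 9.14 against 533. In mouse 32, Ly6c2 was at 3763 against 537 and C1qa at 1.23 against 268. Mouse 34 did not show this, since its 8 cells with at least 2 early UMIs had no Ly6c2 UMI against 10.2 CPM in the other 97, and C1qa at 1801 against 2636 CPM. In mouse 33, 3 such cells had Ly6c2 at 100.1 against 50.4 CPM and C1qa at 726 against 2083. Mouse 27, also with 3 such cells, had Ly6c2 at 1074 against 2.98 and C1qa at 429 against 1980.4 CPM, and mouse 30, with 2, had Ly6c2 at 319 against 146 and C1qa at 0 against 5.05. The direction seen in mice 29 and 32 was thus also that of mice 27, 30 and 33, each with only 2 or 3 such cells. Mouse 34 departed from it for Ly6c2, and mouse 31 had no such cell, so it was not seen in every nodule. In mice 29 and 32, Ccr2 was also higher in these cells, at 230 against 35.9 and 157 against 115 CPM. Csf1r was lower, at 67 against 132 and 66.7 against 154 CPM. The precursor genes were higher, Ctsg at 54.8 against 0 and 69.2 against 6.53 CPM. Ms4a3 was at 9.14 against 0.391 and 43.2 against 2.61 CPM. Whether these cells are monocytes or precursors was not tested.

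Calprotectin RNA also differed in make-up. S100a9 gave 60.1, 61.7, 56.2, 64.3, 58.3, 57.2 and 65.2% of the S100a8 and S100a9 UMIs of neutrophil-like cells in mice 27, 29, 30, 31, 32, 33 and 34, and 60.2, 59.3 and 57% in the T-like cells of mice 29, 30 and 32. In macrophage-like cells it gave 14.3, 42.3, 43.5, 68.2, 37.3 and 4.5% in mice 27, 29, 30, 31, 32 and 33. The macrophage-like share lay below the neutrophil-like share in 5 of 6 mice. Mouse 31 was the exception, and there 240 of its 285 S100a9 UMIs were in 1 cell.

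**Figure D4:**
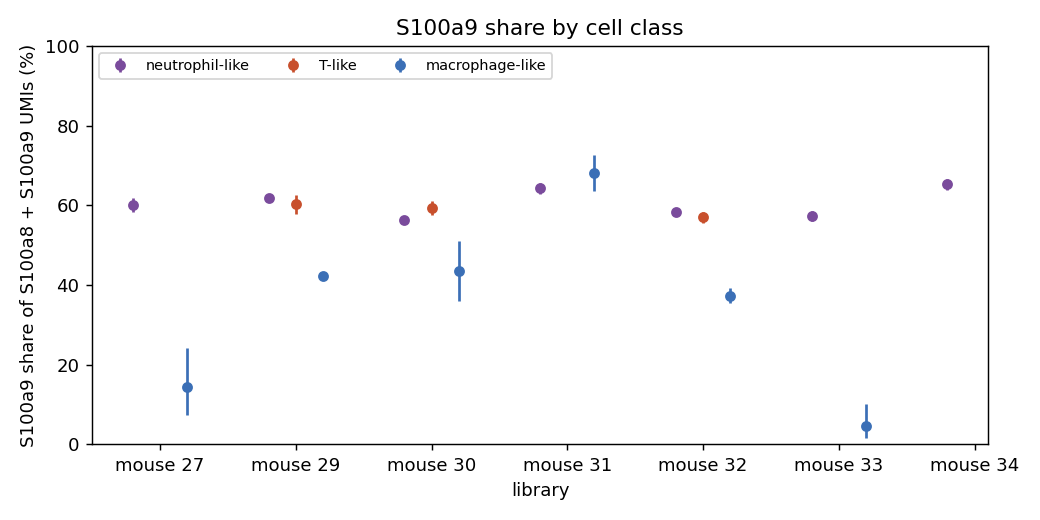
S100a9 as a percent of S100a8 and S100a9 UMIs in neutrophil-like, T-like and macrophage-like cells of each library; points are class sums and bars 95% Clopper-Pearson intervals, with sums of under 50 UMIs omitted. T-like cells of mice 29, 30 and 32 lie at 57.0% to 60.2%, near the neutrophil-like cells, and macrophage-like cells lie lower except in mouse 31.

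Erythroid-like cells of mouse 32 (3991 cells) were another holder of early genes. Set to S100a9, Prtn3 was at 3.25 times its neutrophil-like ratio there, Elane at 3.07 and Mpo at 2.45, while Ngp, Camp and S100a8 were at 1.09, 1.18 and 0.934. The top 1% of these cells held 80.9% of the early UMIs, with 1021 in a single cell. Among all cells of mouse 32 with at least 2 early UMIs, 634 were neutrophil-like, 125 erythroid-like, 62 T-like, 51 macrophage-like and 61 in unnamed clusters, the last with 8538 early UMIs. Doublets and cells between classes were not told apart here.

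Across 45 sums of 1 library and 1 named class, the early genes ran more closely with each other than with later genes. Middle and late genes were not separated by stage. The Pearson correlation of log2(CPM + 10) was 0.987 between S100a8 and S100a9, 0.970 between Camp and Ngp and 0.932 between Mpo and Elane, and it was 0.282 between Mpo and Mmp9. Across stages it reached 0.952 between Ngp and S100a9. Within stages it was as low as 0.792 between Mpo and Prtn3 and 0.778 between S100a9 and Mmp9. The genes outside the set most like Mpo were Clec4b2 (0.972), 1700052H01Rik (0.958) and Gm50022 (0.956). Those most like Ngp were Pram1 (0.924), Cstdc4 (0.916) and Retnlg (0.915), and those most like S100a8 were Trem1 (0.931), Retnlg (0.927) and Ifitm6 (0.912). Sums from 1 library share its depth and its free RNA, so these values are a description.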

How the data were processed

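The authors deposited filtered matrices of raw UMI counts per gene and cell, 1 for each of 7 RNA libraries, with receptor contig tables. The submitters' notes name the builds GRCm38 and mm10; aligner, annotation version and cell calling are not given in the sources used here. The methods name a 3′ kit for RNA and the labels a 5′ kit.

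Cells with over 200 UMIs, over 100 genes and at most 10% mitochondrial UMIs were kept, as in the study's filter. Kept UMIs came to 19254544 (mouse 30) to 122550206 (mouse 32) per library. Cells were clustered in scanpy 1.11.5 (2000 variable genes, 30 components, resolution 1) without the 10 genes. A cluster took a name from at least 3 of a list's markers, each seen in 10% of its cells at 1.5 times the median cluster. Of 33 clusters, 8 stayed unnamed. The 2 neutrophil-like clusters were split again (resolution 0.5), and 455 cells in 5 of 10 sub-clusters with markers of another class were dropped to unnamed, a rule chosen after seeing the data. No doublet caller was run; removal of cells with markers of both lineages was an alternative.

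Counts were summed per mouse and class (at least 20 cells) and tested with edgeR 4.0.16 (quasi-likelihood, TMM, R 4.3.3), two-sided, adjusted over all genes tested; DESeq2 1.42.0 was an alternative. Receptor groups were tied to RNA libraries through the mouse name, and each mouse is 1 replicate. On simulated data with log2 changes of 3, the fits called 13.8% (whole nodule), 37.2% (neutrophil-like), 60.8% (T-like) and 84.8% (middle-gene split) of the changed genes. Shares carry Clopper-Pearson and CPM values Poisson intervals at 95%, and a count of 0 is read against 3 UMIs.

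The 10 genes and all lists were chosen with earlier results of these data known. Named genes were the 10, wider granule lists, the 3 genes most correlated with each of Mpo, Ngp and S100a8, and up to 8 genes each way from the middle-gene split, of which none qualified.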

Additional observations from a re-analysis of the deposited data

Results flagged for a closer look

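Among the 5 BCR mice, mouse 29 lay far above the others for 8 of the 10 granule genes in sums over all cells, by Dixon's test at the 95% level, which marks about 1 group in 20 by chance. The genes share cells and are not independent. Its levels, with the next highest BCR mouse in parentheses, were 4458 CPM for S100a9 (78.2) and 2878 for S100a8 (43.6). The middle genes stood at 919 CPM for Ngp (22.5), 266 for Camp (13.5) and 77.5 for Ltf (1.95). Mmp8 was at 51.2 CPM (0.945), Mmp9 at 24.4 (1.39) and Prtn3 at 11.7 (3.07). Mouse 29 also had the most neutrophil-like cells, 1945 of 14057, and within that class its S100a9 level of 43325 CPM lay between those of the other BCR mice, 35162 to 60815.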

How the results depend on the processing

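In the whole-nodule fit, DESeq2 called 1053 of 19159 genes with 2 members. Leaving out 1 BCR mouse gave 0 to 233 genes and 0 to 6 members, both maxima without mouse 29 (18607 genes tested). Leaving out the neutrophil-like cells, an alternative added after seeing the data, turned Mmp8 to −0.63 and Mmp9 to −0.36. In neutrophil-like cells, 652 genes and 4 members were called without a filter on low counts, 46 genes with classes from marker UMIs, and 15 to 324 genes with 2 to 3 members when 1 mouse was left out. Of the alternatives added later, keeping all sub-clusters gave 83 genes, and dropping the precursor sub-cluster gave 1 gene, 0 members, S100a9 at 0.45, Mmp8 at 0.40 and Mmp9 at 0.050. S100a9 also turned to 1.28 with marker UMIs, and over the leave-outs it ran from −0.52 to 0.37 (positive without mouse 29, at 0.19, and without mouse 32), as S100a8 ran from −0.25 (without mouse 30) to 0.75. In T-like cells, DESeq2 called 235 of 13403 genes and 2 members, no filter 179 of 24466 and 3, and marker UMIs 1 of 12318 genes. Leaving out 1 BCR mouse gave 0 to 26 genes and 0 to 4 members, both maxima without mouse 29 (13670 genes tested). The cause of these changes was not tested.

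For the split by middle genes, DESeq2 called 115 of 9735 genes and 2 members, no filter 255 of 20945 genes and thinned cells 38 of 6728. The leave-outs gave 14 to 373 genes and 0 to 3 members, with the maxima without mouse 32, where Mmp9 stood at −0.38, while it reached 2.26 without mouse 30. Without the replicate block by mouse, 0 genes were called and Mpo turned to −0.41. No paired analysis was possible for TCR against BCR mice because each mouse has 1 receptor and no number is shared.

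The mean share of S100a9 UMIs in neutrophil-like cells, 89.4%, was 77.3% with marker UMIs and 75.9% without cells carrying markers of both lineages. Precision is limited by 2 TCR mice and by 9 to 37 neutrophil-like cells in 4 BCR nodules. Counting each gene under each alternative, direction and side of the threshold held in 100 of the whole-nodule values, 97 of the neutrophil-like, 70 of the T-like and 42 of the split values, a gene newly passed with its direction kept in 8, 4, 9 and 5, and the direction turned in 2, 7, 0 and 2.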
